A study of Oncorhynchus mykiss with 38 samples.

Results

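Maturing testes of rainbow trout at stage V were compared with immature testes at stage I. Every array labelled with either stage was used, that is 5 arrays of stage I and 4 of stage V out of 38 arrays in the series, and all 9024 cDNA clones with values were compared. The other arrays came from stages IIa, IIb, IIIb and VIII and from 3 germ cell fractions. They entered the estimate of each clone's spread, and so the SE and p-values. They also showed where the same clones were high or low outside stages I and V. The samples of stages I and V were whole testes of male farmed trout, and the labels name sex and stage and no treatment, age or strain. Stages were set by histology, after the most differentiated germ cell type in the gonad, together with testis weight relative to body weight. Stage I testes held only slowly dividing type A spermatogonia as germ cells, whereas stage V testes held spermatocytes and spermatids as well. Stage I fish were sampled earlier in the year than stage V fish, so stage and season cannot be told apart. No source used here states that each array of a stage came from a different fish, so p-values measure the spread between arrays within the groups.

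In the testis, spermatogonia divide by mitosis and enter meiosis as spermatocytes, whose divisions give haploid spermatids, and these grow a flagellum and compact their nucleus to become spermatozoa. Germ cells develop inside cysts lined by Sertoli cells, while Leydig cells between the tubules make androgens. The tissue around the tubules also holds fibroblasts, contractile peritubular cells, vessels, blood and leukocytes. In seasonal breeders such as the trout, germ cells multiply within a few months and come to fill most of the organ. In whole testes, fewer cells of a type and less RNA per cell cannot be told apart.

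Each array measured radiolabelled cDNA, made from total RNA with an oligo(dT) primer, on cDNA clones spotted on nylon. The values are log2 signals, quantile normalized by the authors, so that every array has the same distribution, from 5.308 to 13.379. The array median of 8.166 is the level that the study takes as background. A change is thus relative to the other clones on the array. The number of arrays limits the precision, and a level is not comparable between clones. After each clone was centred, the mean correlation of an array with the others of its stage lay between 0.313 and 0.745. The lowest belonged to stage I replicate 1, which stood apart on the second principal component. The first component held 65.3% of the variance and separated the stages.

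The labels were checked against marker genes. The germ line genes ddx4, the vasa RNA helicase, and piwil2, which acts in the piRNA pathway, were above the array median on all 9 arrays, as was the gonadal transcription factor dmrt1. The Sertoli cell gene sox9 and lhcgr, the receptor of luteinizing hormone, were below it on all 9 arrays. Genes on the same side of the median in both stages do not check the stage. The spermatocyte marker sycp3 was above the array median on all 5 arrays of stage I, from 8.28 to 9.89. These testes are described as holding only spermatogonia as germ cells. In isolated spermatogonia the level of sycp3 was 9.74 ± 0.40 (SD, n = 6), so a signal in this range does not set spermatocytes apart from spermatogonia. The flagellum genes ift122 and spata4 were below the array median on every stage I array and above it on every stage V array. The other named flagellum and centriole genes were not all below it in stage I. Cetn4 was above it on every stage I array (8.30 to 9.04), and Txndc6 lay on both sides of it (7.95 to 8.31).

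Between stages I and V, 2784 of the 9024 clones (30.9%) differed in limma at an adjusted p of 0.05. Of these 1371 clones (15.2%) were higher in stage V and 1413 (15.7%) were lower. The rises reached further than the falls. A rise of at least 1 log2 unit, a doubling of the signal, was measured for 417 clones and a fall of that size for 298. For a change of at least 2 log2 units the numbers were 86 and 9. The median change was 0.75 among the clones that rose, -0.68 among those that fell and -0.04 over all clones. In 2354 of the 2784 called clones the arrays of the stages did not overlap, while over all clones 34.1% did not overlap. Without stage I replicate 1, the array that stood apart, 2557 clones were called, of which 1262 were higher and 1295 lower.

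**Figure D1:**
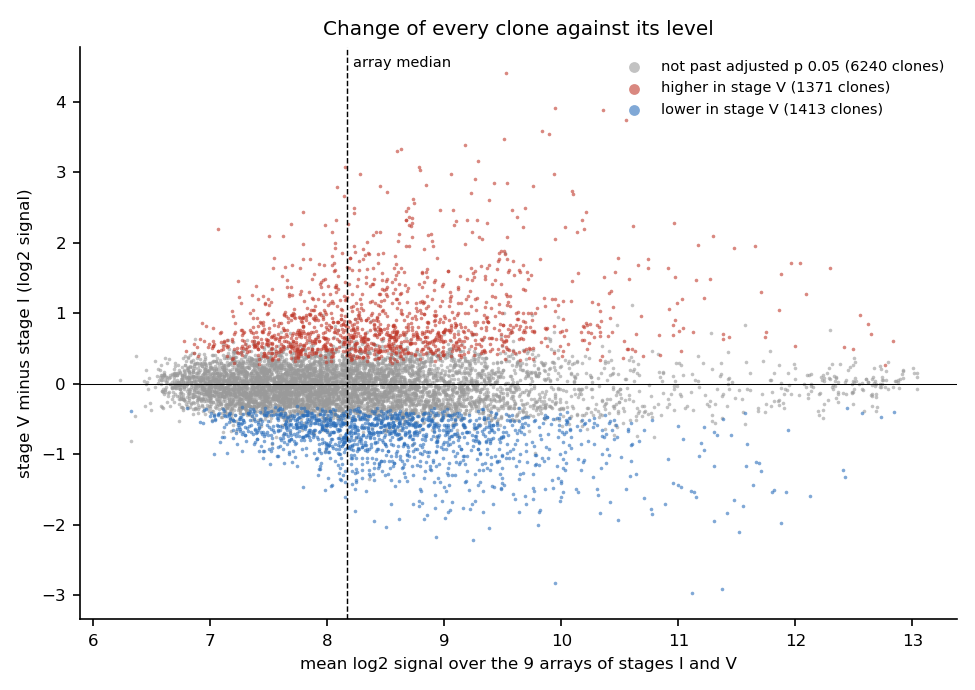
Each point is 1 of the 9024 clones, with the mean log2 signal over the 9 arrays on the horizontal axis and the difference stage V minus stage I in log2 signal on the vertical axis, and the dashed line is the array median. Red points are the 1371 clones called higher in stage V and blue points the 1413 called lower, rises reach 4.41 and falls -2.97, and the brightest clones lie close to 0.

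The share of clones called differed with their level. Among the clones that rose, 614 had a mean at or above the array median in both stages, 503 only in stage V and 254 in neither. Among those that fell, 656 were at or above it in both stages, 451 only in stage I and 306 in neither. Of the 4460 clones with a mean level under 8.166, 11% were called higher and 11% lower. Between 9 and 10 these shares were 20.3% and 22%. Of the 136 clones at 12 or above, 7.35% were called higher and 5.15% lower, and the median size of their change was 0.12 log2 units.

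On the flagellum and centriole list all 5 named clones, of 4 genes, were higher in stage V, with a median change of 1.42. Counts on this and the following lists stand against the 15.2% of all clones that rose and the 15.7% that fell. Txndc6, a thioredoxin domain protein known from sperm and cilia of mammals, had log2 signals of 8.31, 8.11, 8.3, 7.95 and 8.11 in stage I and of 10.92, 11.24, 10.83 and 11.04 in stage V. It was near the array median in stage I and far above it in stage V, with no overlap. The change was 2.85 ± 0.36 (SE, n = 5 and 4, limma adjusted p = 1.3e-07), a 7.22-fold higher signal, and Txndc6 was the named gene with the largest rise. The clone's name was taken from the study's text, since the array description gave it no gene name, so its rank among named genes rests on that choice. By hybridization on testis sections the study located Txndc6 RNA in spermatocytes and spermatids. Cetn4, a centrin of centrioles and basal bodies, had signals of 9.04, 8.74, 8.3, 8.77 and 8.49 in stage I and of 10.58, 10.72, 10.24 and 10.69 in stage V. Every stage V array was above every stage I array, and the change was 1.89 ± 0.23 (SE, adjusted p = 8.6e-08).

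Both clones of ift122, a carrier of the intraflagellar transport that builds flagella, rose, by 1.42 ± 0.19 and 1.37 ± 0.21 (SE, adjusted p = 5.7e-07 and 2.8e-06). Spata4, a spermatogenesis-associated gene, had signals from 7.62 to 7.86 in stage I and from 9.07 to 9.25 in stage V. Its change was 1.39 ± 0.27 (SE, adjusted p = 1.2e-04). The 5 rises passed the test without any 1 array of the 9 and with signals below the array median raised to it. In samples of the other groups, the 5 clones were all higher in spermatocytes than in spermatogonia and all higher in spermatids than in spermatogonia, and 4 of them, those of Txndc6, cetn4 and ift122, were higher in stage IIIb than in stage IIb testes. For Txndc6 these changes were 2.30 ± 0.31, 2.11 ± 0.38 and 1.89 ± 0.41 log2 units (SE). For spata4 the change from stage IIb to IIIb was 0.30 ± 0.31 (SE, adjusted p = 0.67).

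**Figure D2:**
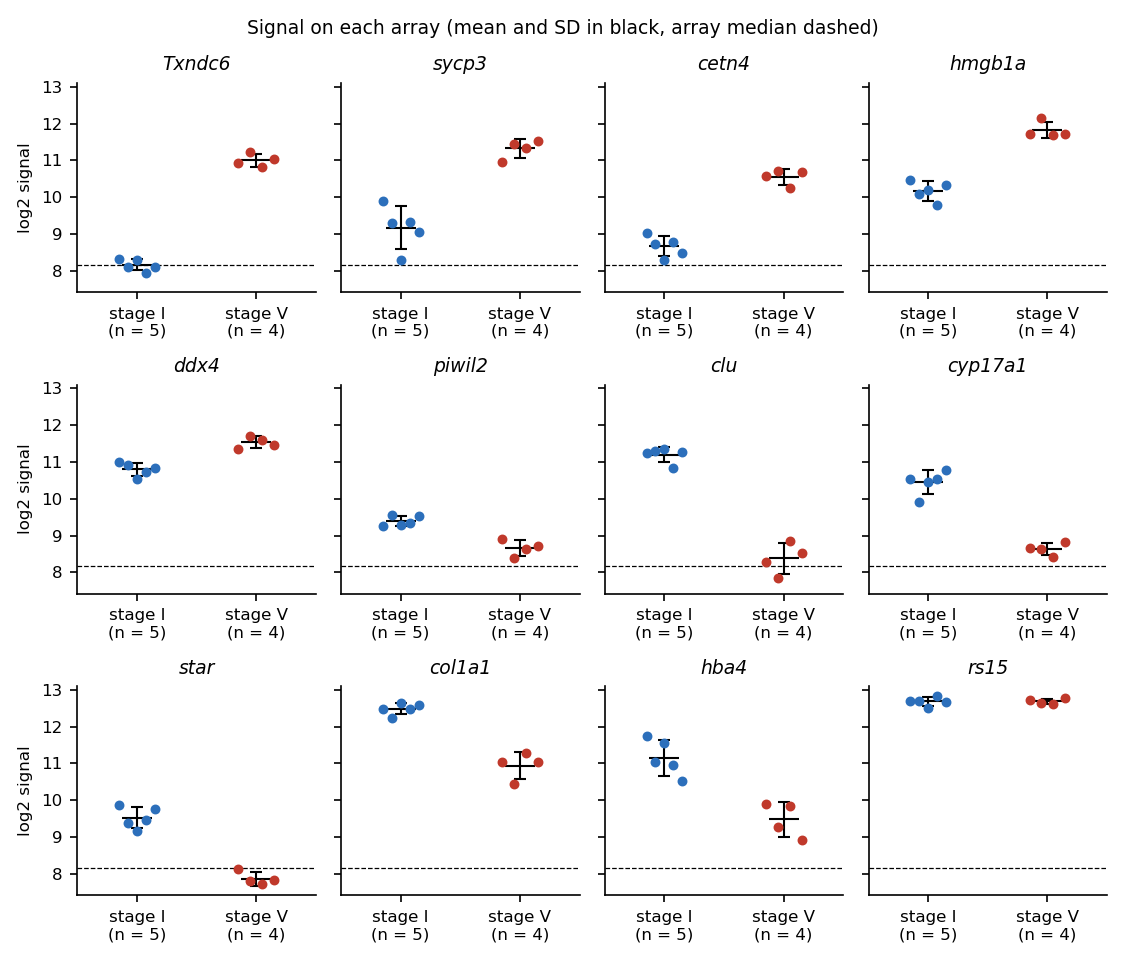
Log2 signals of 12 genes in stage I (blue, n = 5) and stage V (red, n = 4), with 1 point for each array, the mean and SD in black and the array median as a dashed line. Txndc6 rises from about the array median to a mean of 11.01, star falls to a mean of 7.86, under it, and rs15 has a mean of 12.69 in both stages.

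Sycp3, a protein of the synaptonemal complex that joins paired chromosomes in meiosis, was the only member of the meiosis list among the named clones. Its signals were 9.89, 9.3, 8.28, 9.33 and 9.06 in stage I and 10.97, 11.46, 11.35 and 11.53 in stage V. The stages did not overlap, but stage I was wider (SD 0.58) than stage V (SD 0.25). Sycp3 rose by 2.16 ± 0.31 (SE, adjusted p = 1.5e-06). Its levels were 8.70 ± 0.24 (SD, n = 4) in stage IIa, 9.04 ± 0.23 (SD, n = 4) in stage IIb and 10.79 ± 0.39 (SD, n = 3) in stage IIIb. It was higher by 0.72 ± 0.27 in spermatocytes and by 1.39 ± 0.33 in spermatids than in spermatogonia (SE, adjusted p = 0.044 and 2.4e-03).

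The 2 germ line genes moved in opposite directions. Ddx4 had signals of 11, 10.91, 10.54, 10.72 and 10.85 in stage I and of 11.36, 11.72, 11.61 and 11.47 in stage V, and rose by 0.74 ± 0.19 (SE, adjusted p = 2.3e-03). Piwil2 had signals of 9.27, 9.55, 9.28, 9.35 and 9.52 in stage I and of 8.9, 8.38, 8.62 and 8.72 in stage V, and fell by 0.74 ± 0.17 (SE, adjusted p = 6.9e-04). Neither gene's stages overlapped. In the germ cell fractions both genes were highest in spermatogonia. From spermatogonia to spermatocytes the change was -0.88 ± 0.16 for ddx4 and -1.16 ± 0.14 for piwil2 (SE, adjusted p = 6.9e-05 and 1.8e-07). Piwil2 was also lower in stage IIIb than in stage IIb (-0.62 ± 0.19, SE, adjusted p = 0.039), whereas ddx4 did not pass there (0.54 ± 0.21, SE, adjusted p = 0.13).

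Of the chromatin list, hmgb1a, a high mobility group protein that bends DNA, had signals of 10.48, 10.09, 10.2, 9.78 and 10.33 in stage I and of 11.71, 12.15, 11.7 and 11.72 in stage V. It was bright in both stages, and the arrays of stage V were all above those of stage I. The rise was 1.65 ± 0.19 (SE, adjusted p = 2.7e-08), a 3.13-fold higher signal, and hmgb1a was also higher in spermatocytes, in spermatids and in stage IIIb, by 0.83 ± 0.16, 0.86 ± 0.20 and 1.12 ± 0.21 (SE) against spermatogonia and stage IIb. The linker histone h1m fell by 0.65 ± 0.17 (SE, adjusted p = 3.9e-03), but all its arrays were below the array median.

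Genes of protein turnover rose in part. The proteasome degrades tagged proteins, and the COP9 signalosome regulates the ligases that tag them. Of 8 clones on the joint list 6 were higher and 1 was lower in stage V, with a median change of 0.80. Csn6, a signalosome subunit, had signals from 9.77 to 10.16 in stage I and from 11.24 to 11.54 in stage V in its largest change, a rise of 1.49 ± 0.20 (SE, adjusted p = 2.5e-07). A further clone of csn6 rose by 0.91 ± 0.16 (SE, adjusted p = 3.7e-05). The remaining clone of csn6 was the brightest, at 12.54 in stage I and 12.41 in stage V, and did not pass (-0.13 ± 0.20, SE, adjusted p = 0.67), so clones that carry the same gene name differed. Csn5, the catalytic subunit of the signalosome, rose by 0.99 ± 0.21 (SE, adjusted p = 3.1e-04). Psmb6, a catalytic subunit of the proteasome, rose by 0.96 ± 0.16 (SE, adjusted p = 1.5e-05). The rises of psmd8 and PSB3 were smaller, and without 1 array each they were no longer called (lowest changes of 0.38 and 0.55, adjusted p up to 0.11 and 0.058). Psmd8 lost its call without stage I replicate 2 or 3 or stage V replicate 1 or 2, and PSB3 without stage I replicate 5 or stage V replicate 2. The clone that fell was eif3m, a subunit of the translation initiation factor eIF3, which was on the list only through an old alias (-0.86 ± 0.18, SE, adjusted p = 4.1e-04). Psmb6 was not called between the fractions (-0.04 ± 0.14 from spermatogonia to spermatocytes, SE, adjusted p = 0.86), whereas the 2 risen clones of csn6 were higher in spermatocytes, by 0.87 ± 0.17 and 0.50 ± 0.14 (SE).

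Among the chaperones, which fold other proteins, the changes were small. Of 14 clones 4 were higher and 1 was lower, with a median change of 0.25. The 4 were clones of the cytosolic HSP90 genes hsp90bb and hsp90ab1. Hsp90bb rose from 12.34 ± 0.15 (SD, n = 5) to 13.03 ± 0.32 (SD, n = 4) in its brighter clone and from 9.72 ± 0.39 to 10.40 ± 0.17 in the dimmer. The changes were 0.70 ± 0.15 and 0.68 ± 0.16 (SE, adjusted p = 4.4e-04 and 9.5e-04). Hsp90ab1 rose by 0.49 ± 0.13 in the brighter clone (SE, adjusted p = 3.8e-03). The dimmer clone of hsp90ab1 (0.79 ± 0.31, SE, adjusted p = 0.047) rested on single arrays: it was 0.39 with an adjusted p of 0.26 at the lowest without 1 array. Stage I replicate 1 had 9.08 there, against 10.75 to 11.25 on the other stage I arrays, and the call was lost without it, without stage I replicate 5 or without any of stage V replicates 2, 3 and 4. CCT5, a subunit of the chaperonin for actin and tubulin, fell by 0.57 ± 0.18 (SE, adjusted p = 0.016), a call lost without stage I replicate 1 or stage V replicate 3 and with signals below the array median raised to it. Cct8, another subunit, did not pass (0.29 ± 0.19, SE, adjusted p = 0.28).

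Lipid genes moved in both directions. Of 14 clones 4 were higher and 5 lower. Hormone-sensitive lipase, which releases fatty acids from stored fat, rose in all 3 of its clones. For lipe1 the changes were 1.68 ± 0.31 and 1.33 ± 0.26 (SE, adjusted p = 7.2e-05 and 1.4e-04) and for lipea 1.66 ± 0.27 (SE, adjusted p = 7.7e-06). All were below or close to the array median in stage I: the lipea signals were 6.82, 7.11, 6.8, 6.87 and 6.89 there, and 8.8, 8.94, 8.27 and 8.24 in stage V. With signals below the array median raised to it, the rise of lipea was 0.40 and those of lipe1 0.81 and 1.02, still past the test. Lipea was higher in spermatids than in spermatogonia (1.39 ± 0.28, SE, adjusted p = 4.6e-04) and was not called between spermatocytes and spermatogonia (0.46 ± 0.23, SE, adjusted p = 0.14). Fabph, a fatty acid-binding protein that carries fatty acids within the cell, fell in both clones, by 1.38 ± 0.25 and 0.95 ± 0.16 (SE, adjusted p = 5.8e-05 and 1.1e-05). Without single arrays 3 to 4 clones of the list were called higher and 2 to 5 lower. Only 2 fell without stage V replicate 2, and 3 without stage I replicate 1 or 2 or stage V replicate 3 or 4.

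Other named genes with large rises were cq032 (1.34 ± 0.16, SE, adjusted p = 6.2e-08) and wu:fj39g12 (1.25 ± 0.15, SE, adjusted p = 5.6e-08). Both were above every stage I array on every stage V array. Cq032 was also higher in spermatocytes than in spermatogonia (1.14 ± 0.14, SE, adjusted p = 1.5e-07), whereas wu:fj39g12 was not called there (0.21 ± 0.13, SE, adjusted p = 0.23). Roa0, an RNA-binding protein of the hnRNP A0 type, rose from 9.16 ± 0.54 (SD, n = 5) to 10.17 ± 0.31 (SD, n = 4), by 1.01 ± 0.24 (SE, adjusted p = 1.1e-03). Its lowest change without 1 array was 0.77. In the fractions roa0 was highest in spermatogonia. It was lower in spermatids (-0.81 ± 0.25, SE, adjusted p = 0.018) and not called in spermatocytes (-0.46 ± 0.20, SE, adjusted p = 0.096). Fih1, the asparaginyl hydroxylase that inhibits HIF, rose by 1.11 ± 0.36 (SE, adjusted p = 0.016), but not with signals below the array median raised to it (0.54, adjusted p = 0.25). Si:ch211-137i24.10 had 10.13, 9.23, 8.36 and 8.31 on the stage V arrays, a wide spread (SD 0.86). Its change of 1.28 ± 0.41 (SE, adjusted p = 0.016) was 0.91 with an adjusted p of 0.11 without stage V replicate 1.

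Leydig cells make androgens from cholesterol. Of 7 clones on the steroidogenesis list 5 fell in stage V, 2 did not pass and none rose, with a median change of -1.48, and leaving out any 1 array left 5 falls. The mean level of the list was 9.36 to 9.51 on the arrays of stage I and 8.17 to 8.25 on those of stage V. Star, which brings cholesterol into the mitochondrion, had signals of 9.87, 9.39, 9.17, 9.47 and 9.77 in stage I and of 8.12, 7.79, 7.71 and 7.84 in stage V. All arrays of stage I were above the array median and all of stage V below it, and star fell by 1.67 ± 0.30 (SE, adjusted p = 3.7e-05). Cyp17a1, the enzyme that makes androgen precursors, had 10.54, 9.92, 10.45, 10.55 and 10.78 in stage I and 8.67, 8.63, 8.41 and 8.82 in stage V. It fell by 1.82 ± 0.22 (SE, adjusted p = 9.7e-08), a 3.53-fold lower signal, with all stage V arrays still above the array median.

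The enzymes of later steps fell by similar sizes. Hsd3b1, 3-beta-hydroxysteroid dehydrogenase, fell by 1.48 ± 0.20 (SE, adjusted p = 5.3e-07). Cyp11b and hsd11b2, which in fish act in the synthesis of 11-ketotestosterone, fell by 1.42 ± 0.25 and 1.68 ± 0.20 (SE, adjusted p = 2.4e-05 and 6.2e-08). Raising signals below the array median to it left a change of -0.67 for cyp11b (adjusted p = 2.0e-03). Tspo, a mitochondrial cholesterol-binding protein (-0.31 ± 0.19, SE, adjusted p = 0.21), and cbr1, a carbonyl reductase (0.04 ± 0.15, SE, adjusted p = 0.87), did not pass. In testes of the other stages, star, cyp17a1, hsd3b1 and hsd11b2 were lower in stage IIIb than in stage IIb. The falls were 1.10 ± 0.34, 1.13 ± 0.26, 1.18 ± 0.23 and 0.79 ± 0.23 (SE, adjusted p = 0.041, 5.3e-03, 1.3e-03 and 0.029), and cyp11b did not pass (-0.81, adjusted p = 0.074). In spawning testes of stage VIII the level of star was 11.61 ± 0.83 and that of cyp17a1 11.66 ± 0.45 (SD, n = 3), while hsd3b1 was at 10.44, against 10.42 in stage I, cyp11b at 8.90, against 8.84, and hsd11b2 at 10.68, against 9.81.

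Of the hormone receptor clones 3 had a mean at or above the array median in stage I and 2 in stage V. Of 7 clones 2 fell and none rose, against 15.7% and 15.2% of all clones, with a median change of -0.13. The receptor of luteinizing hormone, lhcgr, had 7.67 to 8.07 in stage I and 7.64 to 7.86 in stage V, all below the array median (change -0.03 ± 0.19, SE, adjusted p = 0.93). The estrogen receptor esr1 was below it too (-0.13 ± 0.24, SE, adjusted p = 0.73). In stage VIII the level of lhcgr was 9.55 ± 0.19 and that of esr1 9.34 ± 0.69 (SD, n = 3). The 2 clones that fell were growth hormone receptors. Ghr had 8.32 to 8.49 in stage I and 7.53 to 7.65 in stage V, a fall of 0.79 ± 0.13 (SE, adjusted p = 1.7e-05). Once low signals were set to the array median, ghr differed by -0.21 (adjusted p = 7.4e-04). Ghr1 fell by 0.54 ± 0.15 (SE, adjusted p = 4.1e-03).

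Of the Sertoli cell list, clu and dmrt1 fell. Clu, the secreted chaperone clusterin, had 11.24, 11.3, 11.35, 10.85 and 11.28 in stage I and 8.28, 7.85, 8.86 and 8.53 in stage V. It was among the bright clones in stage I and close to the array median in stage V, and no named gene fell further (-2.82 ± 0.35, SE, adjusted p = 7.9e-08), a 7.07-fold lower signal. Its level was 11.09 ± 0.54 (SD, n = 4) in stage IIa, 10.81 ± 0.43 (SD, n = 4) in stage IIb, 9.74 ± 0.33 (SD, n = 3) in stage IIIb and 9.23 ± 0.34 (SD, n = 3) in stage VIII. Between stages IIb and IIIb the change of clu did not pass (-1.07 ± 0.39, SE, adjusted p = 0.094). Dmrt1 fell by less, from 9.32 ± 0.13 (SD, n = 5) to 8.80 ± 0.17 (SD, n = 4), by 0.52 ± 0.15 (SE, adjusted p = 8.0e-03). It was also lower in stage IIIb than in stage IIb (-0.71 ± 0.17, SE, adjusted p = 8.9e-03) and in spermatocytes than in spermatogonia (-0.54 ± 0.13, SE, adjusted p = 1.8e-03). Sox9 was below the array median on all 9 arrays and did not pass (-0.08 ± 0.18, SE, adjusted p = 0.80).

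Of 11 clones of the extracellular matrix 7 fell, 4 did not pass and none rose, with a median change of -0.71. Of these 11 clones 6 were named from the study's table, from a cluster that the study calls somatic and formed on these samples, so their direction is not independent evidence. Among the 5 others, 4 fell, those of col1a1, col1a2, mmp9 and a clone of col1a1b. Col1a1, a chain of collagen I, had 12.47, 12.25, 12.65, 12.48 and 12.59 in stage I and 11.04, 10.43, 11.28 and 11.03 in stage V. It stayed bright in stage V, with no overlap, and fell by 1.54 ± 0.27 (SE, adjusted p = 2.4e-05). Col1a2, the partner chain, fell by 1.23 ± 0.24 (SE, adjusted p = 1.5e-04), and a clone of col1a1b by 1.85 ± 0.23 (SE, adjusted p = 1.0e-07). A second clone named col1a1b was at 12.96 in stage I and 13.13 in stage V and did not pass (0.16 ± 0.34, SE, adjusted p = 0.77). Mmp9, a matrix-degrading protease also made by leukocytes, had 9.38 to 10.23 in stage I and 7.45 to 8.07 in stage V, and fell by 1.86 ± 0.37 (SE, adjusted p = 1.7e-04). Collagen COL4A5 of basement membranes fell by 0.73 ± 0.17 (SE, adjusted p = 9.5e-04). Tenascin TNC did not pass (-0.16 ± 0.17, SE, adjusted p = 0.51).

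Keratins are intermediate filament proteins of epithelia, and the 4 keratin clones named here fell. Clones entered the lists by symbol or alias, so keratins under other names may be missing. On the list of intermediate filaments and cytoskeleton 6 of 8 clones fell and none rose, with a median change of -1.08. The study's table of somatic clones named 2 of these 8, so their direction is not independent evidence. Krt18 fell in both clones, by 1.53 ± 0.40 and 1.52 ± 0.33 (SE, adjusted p = 2.9e-03 and 4.3e-04). The keratins krt79 and s1 fell by 1.65 ± 0.38 and 1.51 ± 0.41 (SE, adjusted p = 1.0e-03 and 4.4e-03). These 4 keratin clones had signals of at least 11.64 on every stage I array and of at most 11.37 on every stage V array. In spermatids their spread was wide (SD 1.33 to 1.95, n = 3).

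**Figure D3:**
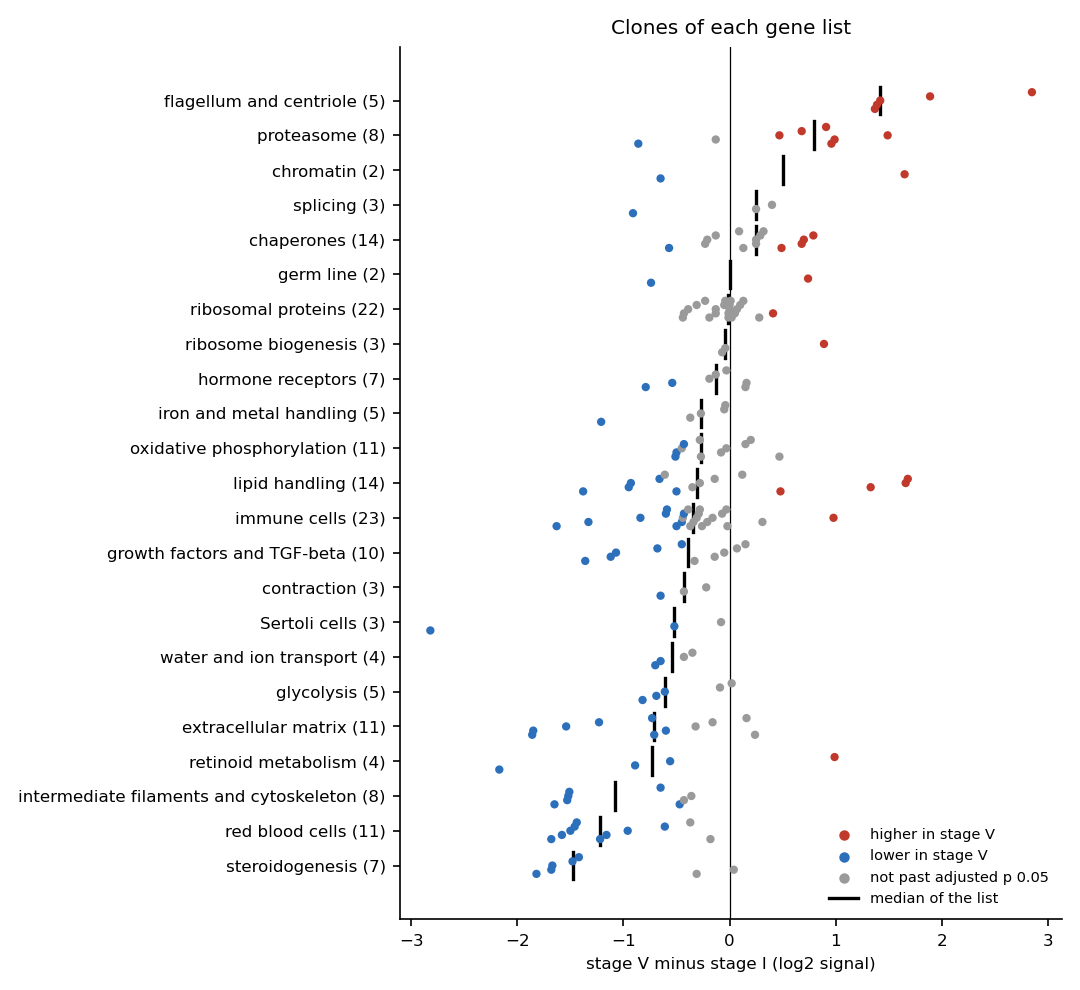
Each point is a clone of a gene list, placed by its change from stage I to stage V in log2 signal, with red for called higher, blue for called lower and grey for not past an adjusted p of 0.05, and the black bar is the median of the list. The numbers in brackets count the clones, the medians run from -1.48 for steroidogenesis to 1.42 for flagellum and centriole, and the 22 clones of ribosomal proteins lie around -0.01.

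Red blood cell genes were lower in stage V. Of 11 clones 9 fell and none rose, with a median change of -1.22. Hba4, an alpha-globin, had 11.74, 11.04, 11.55, 10.96 and 10.53 in stage I and 9.9, 9.27, 9.83 and 8.91 in stage V, and fell by 1.68 ± 0.39 (SE, adjusted p = 9.0e-04). The stages did not overlap. Hba1 fell by 1.58 ± 0.44 (SE, adjusted p = 5.8e-03). The brightest beta-globin clone, named hbb4, was at 12.40 in stage I and 12.03 in stage V and did not pass (-0.37 ± 0.19, SE, adjusted p = 0.15). Cahz, the carbonic anhydrase of red cells, did not pass either (-0.18 ± 0.19, SE, adjusted p = 0.51). The mean level of the list ranged from 9.92 to 11.01 on stage I arrays and from 8.91 to 9.58 on stage V arrays, with stage I replicate 1 the highest. Without that array 7 clones fell, and over all single arrays left out 6 to 9 did, the fewest without stage V replicate 4. In the fractions 10 of the 11 clones were lower in spermatocytes than in spermatogonia, against 14.9% of all clones, by 2.30 ± 0.33 for hba4 (SE, adjusted p = 2.6e-06), and none was called between stages IIb and IIIb. The part of blood content in the other falls was not tested.

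Immune genes lay on both sides of the array median, which by definition splits all clones evenly. Of 23 clones 8 fell and 1 rose, against 15.7% and 15.2% of all clones. The median change was -0.34, and without single arrays 5 to 7 fell, the fewest without stage V replicate 3. Of the 23 clones 10 had a mean at or above the array median in stage I and 9 in stage V. The tetraspanin cd63, found in lysosomes of many cell types, had 10.35, 10.11, 10.36, 10.23 and 10.57 in stage I and 9.05, 8.44, 8.58 and 8.74 in stage V. It fell by 1.63 ± 0.27 (SE, adjusted p = 1.3e-05), with no overlap, and was lower in spermatocytes than in spermatogonia as well (-1.27 ± 0.23, SE, adjusted p = 7.5e-05). Il13ra2b, a receptor chain for interleukin 13, fell by 1.33 ± 0.30 (SE, adjusted p = 7.8e-04), although stage I replicate 5 (8.73) lay within the range of stage V. The chemokine cxcl14 fell by 0.84 ± 0.22 (SE, adjusted p = 3.3e-03), below the array median in both stages on average. Irf3, a transcription factor of the interferon response, was the clone that rose, from a range of 7.1 to 7.49 to one of 8.17 to 8.33 (0.98 ± 0.15, SE, adjusted p = 4.8e-06). With signals below the array median raised to it, the rise of irf3 was 0.08 (adjusted p = 0.31). The only vessel gene among the named clones, PTPRB, a phosphatase of endothelial cells, was below the array median in both stages on average. It fell by 0.92 ± 0.18 (SE, adjusted p = 9.0e-05). That call too was lost with signals below the array median raised to it.

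Growth factors and the TGF-beta pathway carry signals between cells of the testis. By hybridization on testis sections the study located Tgfbr3 and igfbp7 RNA in Leydig cells, and igfbp7 RNA also in vessels. Of 10 clones on this list 5 fell, 5 did not pass and none rose, with a median change of -0.39. The 5 that fell were BAMBI, SMAD7, Tgfbr3, igfbp7 and igf1, and the calls of the last pair were lost without some single arrays. BAMBI, a decoy receptor of the pathway, had 8.58, 8.86, 9.25, 8.56 and 9 in stage I and 7.7, 7.4, 7.36 and 7.49 in stage V. All stage I arrays were above the array median and all stage V arrays below it, and BAMBI fell by 1.36 ± 0.17 (SE, adjusted p = 1.1e-07). SMAD7, an intracellular inhibitor of the pathway, fell by 1.12 ± 0.18, and the co-receptor Tgfbr3 by 1.07 ± 0.19 (SE, adjusted p = 1.1e-05 and 3.4e-05). These 3 names came from the study, which chose the clones on these samples. With signals below the array median raised to it, the falls of BAMBI and Tgfbr3 were -0.68 and -0.36, still past the test. Igfbp7, which binds insulin-like growth factors, fell by 0.68 (adjusted p = 0.037), a call lost without any of 7 of the 9 arrays. Without stage V replicate 2 only 3 clones of the list fell, and without any other single array 4 or 5. Igf1 was below the array median on all 9 arrays, and its fall of 0.45 ± 0.13 (SE, adjusted p = 9.2e-03) was 0.38 with an adjusted p of 0.051 without stage V replicate 2. Both clones of gdf9, a TGF-beta ligand known from germ cells, did not pass (0.07 ± 0.13 and 0.15 ± 0.15, SE). Tcf23, a basic helix-loop-helix factor that the study names, fell by 1.14 ± 0.22 (SE, adjusted p = 1.1e-04), from 9.83 ± 0.32 (SD, n = 5) to 8.69 ± 0.08 (SD, n = 4).

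Of 4 retinoid genes 3 fell and 1 rose. Rbp4, the carrier of vitamin A in blood, had 9.99, 10.36, 10.22, 9.53 and 9.37 in stage I and 8.61, 6.86, 7.84 and 7.57 in stage V. The stages did not overlap, but stage V spanned a wide range (SD 0.73). Rbp4 fell by 2.17 ± 0.32 (SE, adjusted p = 1.7e-06). The retinoid dehydrogenases DHRS9 and DHRS3 fell by 0.89 ± 0.18 and 0.56 ± 0.20 (SE, adjusted p = 2.4e-04 and 0.029), and rdh12, a retinol dehydrogenase, rose by 0.99 ± 0.26 (SE, adjusted p = 3.1e-03). Rdh12 was below the array median on all arrays but stage V replicate 3, and with signals below the median raised to it its change was 0.15 (adjusted p = 0.16). In that run only 2 clones of the list were called lower, rbp4 among them, so DHRS9 or DHRS3 lost its call. Without single arrays 2 to 3 clones of the list fell, and rbp4 always did.

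In energy metabolism 3 of 5 clones of glycolysis fell and none rose. Of these 5 clones 3 were named from the study's table of somatic clones, so their direction is not independent evidence. Gapdh, a central enzyme of glycolysis, had 10.22 to 10.64 in stage I and 9.49 to 9.71 in stage V in the clone that fell (-0.82 ± 0.16, SE, adjusted p = 8.7e-05). The other clone of gapdh did not pass (-0.09 ± 0.26, SE, adjusted p = 0.84), and the stages overlapped there. The muscle-type phosphofructokinase PFKM fell by 0.61 ± 0.15 (SE, adjusted p = 1.3e-03). The clone of gapdh that fell was lower in spermatocytes than in spermatogonia as well (-1.37 ± 0.13, SE, adjusted p = 6.1e-09). Of 11 clones of oxidative phosphorylation 3 fell and none rose, while 15.7% of all clones fell. The study's table named 2 of these 11 clones. The median change of the list was -0.27, and with any single array left out at most 2 fell, with none without stage I replicate 1 or stage V replicate 3, 1 without stage I replicate 4 or stage V replicate 2 or 4, and 2 without each of the others.

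Ribosomal protein clones were bright. Of 22 clones 16 had a mean level of at least 12, and the median change of the list was -0.01. Only rps6 was called, with a rise of 0.41 ± 0.16 (SE, adjusted p = 0.047) that was lost without any of 7 of the 9 arrays (adjusted p up to 0.13), all but stage I replicate 4 and stage V replicate 1. Rs15, a protein of the small subunit, had 12.7, 12.71, 12.52, 12.85 and 12.66 in stage I and 12.72, 12.64, 12.61 and 12.78 in stage V. These ranges overlapped fully, and the SE of the change of 0.00 was 0.10. Nucleolin, ncl, which acts in ribosome assembly, rose by 0.89 ± 0.31 (SE, n = 5 and 3, adjusted p = 0.026). Without stage I replicate 1 or 5 or stage V replicate 3 or 4 the call of ncl was lost (lowest change 0.59, adjusted p up to 0.11).

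Of the smaller lists none held more than 5 clones. In splicing the hnRNP C gene HNRNPC fell by 0.91 ± 0.19 (SE, adjusted p = 3.8e-04), while the other 2 clones of the list did not pass with all arrays and were called higher without stage I replicate 1. The aquaporin AQP10 and the cotransporter family member SLC12A9 fell by 0.65 ± 0.15 and 0.70 ± 0.13 (SE, adjusted p = 1.3e-03 and 5.2e-05). Among iron genes a clone of transferrin, tfa, the iron carrier of blood, fell by 1.21 ± 0.30 (SE, adjusted p = 2.2e-03), with overlapping stages, whereas another clone of tfa did not pass (-0.04 ± 0.24, SE, adjusted p = 0.92). Without stage I replicate 1, 2 of the 5 iron clones fell. Of the contraction genes annexin ANXA6 fell in a clone, by 0.65 ± 0.19 (SE, adjusted p = 9.2e-03), and smoothelin SMTN did not pass (-0.22 ± 0.22, SE, adjusted p = 0.47). With signals below the array median raised to it, no clone of the splicing, iron or contraction lists was called. The names HNRNPC, AQP10, SLC12A9, ANXA6 and SMTN, and above them h1m, CCT5, PTPRB, PFKM, DHRS9 and DHRS3, came from the study's table, so the direction of these clones is not independent evidence either.

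Further named genes with large falls were INVX (-2.21 ± 0.23, SE, adjusted p = 5.0e-09) and s10i (-1.67 ± 0.24, SE, adjusted p = 1.3e-06). INVX had 10.1, 10.22, 10.6, 9.9 and 10.34 in stage I and 8.2, 7.83, 8.35 and 7.66 in stage V, with no overlap. It was lower in spermatocytes than in spermatogonia (-1.56 ± 0.20) and in stage IIIb than in stage IIb (-1.73 ± 0.26, both SE, adjusted p = 2.9e-07 and 1.9e-04). S10i was not called in either of these comparisons (-0.26 ± 0.21 and -0.75 ± 0.27, SE, adjusted p = 0.37 and 0.091).

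Most clones that changed carry no gene name. Of 730 named clones 80 rose and 220 fell. Names from the array description covered 534 clones, of which 14.8% rose and 19.9% fell, against 15.2% and 15.7% of all clones. Names from the study's table covered 193 clones, of which none rose and 58% fell. They included 2 of the 14 lipid clones, 1 of the 11 red blood cell clones and 1 of the 23 immune clones. On the lists of iron genes and of growth factors they were 1 of 5 and 3 of 10 clones. The part of that table used here held only clones of a single cluster, which the study calls somatic and formed from these samples, so these counts cannot be read as a result. Of 69 genes with at least 2 clones, 33 had a called clone, and in 14 of these all clones were called the same way. In 18 genes some clones were called and others were not, and in 1 gene, s8, clones were called in both directions.

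The largest changes were in clones without a name, chosen here after their values were seen. Clone tcba0019.j.11 had 8.22, 7.81, 7.44, 7.08 and 7.28 in stage I and 11.81, 12.31, 12.06 and 11.74 in stage V. It was below the array median in stage I apart from replicate 1 and among the brightest clones in stage V, with a rise of 4.41 ± 0.46 (SE, adjusted p = 5.0e-09). It was also higher by 3.30 ± 0.40 in spermatocytes, by 2.51 ± 0.48 in spermatids and by 2.89 ± 0.52 in stage IIIb (SE), against spermatogonia and stage IIb. Clones tcbi0011.m.20 and tcav0005.k.24 rose by 3.91 ± 0.43 and 3.88 ± 0.41 (SE, adjusted p = 1.4e-08 and 7.1e-09). Clone tcba0024.p.18 had 12.88, 11.71, 12.48, 12.25 and 12.88 in stage I and 10, 9.35, 9.5 and 9.05 in stage V, the largest fall of all (-2.97 ± 0.33, SE, adjusted p = 2.0e-08). Clone tcbk0040.p.09 fell by 2.91 ± 0.28 (SE, n = 5 and 3, adjusted p = 1.6e-09), with no value on stage V replicate 1. Neither of these clones that fell was called between spermatocytes and spermatogonia (-0.40 ± 0.29 and -0.53 ± 0.23, SE, adjusted p = 0.32 and 0.085). Both were lower in spermatids than in spermatogonia (-1.05 ± 0.35 and -0.85 ± 0.27, SE, adjusted p = 0.03 and 0.02). They were also lower in stage IIIb than in stage IIb, by 1.98 ± 0.38 and 1.66 ± 0.29 (SE).

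The clones called between stages I and V were then followed in the other groups. Arrays of those groups entered the comparison through the estimate of the spread and the shared quantile normalization. The median level of the 1371 clones that rose was 8.04 in stage I, 8.07 in stage IIa, 8.18 in stage IIb, 8.69 in stage IIIb, 8.95 in stage V and 8.11 in stage VIII. The median of the 1413 clones that fell was 8.84, 8.80, 8.65, 8.22, 8.07 and 8.75 in the same order. Values of stages I and V follow from how the clones were chosen. Outside them, both sets were close to their stage I levels in stages IIa and VIII and moved between stages IIb and IIIb. In the fractions, the clones that rose had medians of 8.39 in spermatogonia, 8.74 in spermatocytes and 8.76 in spermatids, and the clones that fell 8.34, 7.99 and 8.09.

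**Figure D4:**
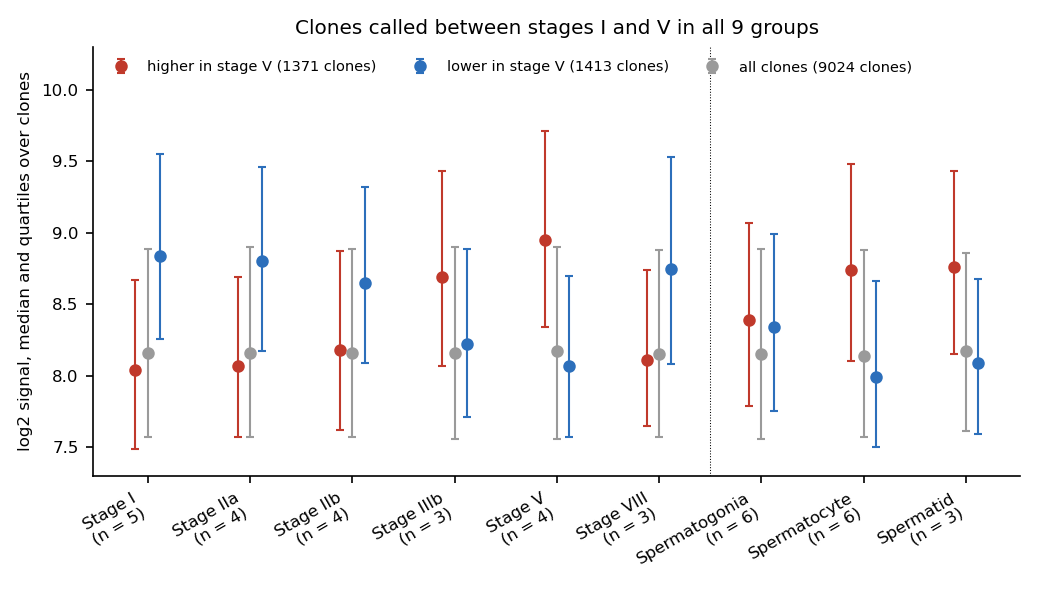
Median log2 signal and quartiles over the clones called higher (red) or lower (blue) in stage V and over all clones (grey), in the 6 testis stages and the 3 germ cell fractions. The medians of stages I and V are fixed by the choice of clones, and among the other stages the red and blue medians change places between IIb (8.18 and 8.65) and IIIb (8.69 and 8.22).

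Over all clones 26.9% were called in either direction between spermatocytes and spermatogonia, 21.3% between spermatids and spermatogonia and 7.04% between stages IIIb and IIb. Of the clones that rose, 489 (35.7%) were also higher in spermatocytes than in spermatogonia, against 12% of all clones, and 79 (5.76%) were lower, against 14.9%. These 489 were 45.1% of all 1085 clones higher in spermatocytes. Between spermatids and spermatogonia 402 of the clones that rose (29.3%) were higher, against 9.74% of all clones, and 73 (5.32%) were lower. The spermatocyte and the spermatid comparison share the spermatogonia arrays. Between stages IIb and IIIb 334 (24.4%) rose, against 3.92% of all clones, which were 94.4% of the 354 clones that rose there, and none fell.

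Of the clones that fell, 491 (34.7%) were lower in spermatocytes than in spermatogonia, against 14.9% of all clones, and 49 (3.47%) were higher. These 491 were 36.6% of all 1343 clones lower in spermatocytes. Between spermatids and spermatogonia 322 (22.8%) were lower, against 11.6%, and 51 (3.61%) were higher. Between stages IIb and IIIb 249 (17.6%) fell, against 3.11% of all clones, which were 88.6% of the 281 clones that fell there, and none rose. Of the clones that rose 148 (10.8%) were higher in all 3 comparisons, against 1.64% of all clones, and 675 (49.2%) in none, against 83.4%. Of the clones that fell 79 (5.59%) were lower in all 3, against 0.909% of all clones, and 767 (54.3%) in none, against 80.9%. The shares depend on the settings. With array weights 15.9% of the clones that rose were higher in spermatids, against 5.51% of all clones, and 42% in stage IIIb, against 11.1%, and at an adjusted p of 0.005 the share in stage IIIb was 11.1%, against 1.04%. These shares are descriptions without a test of the overlap, since clones are not independent and all comparisons share 1 estimate of the spread. Each fraction was an enrichment, and the one of spermatogonia still held Sertoli cells. Red cell genes were also bright in it: the clones of hba4 and hba1 named above were at 11.05 and 10.61. Stage I testes had 11.16 and 11.01, and spermatocytes 8.75 and 8.53. The part of blood RNA in these shares was not tested. The spermatogonia came from pooled immature testes and the spermatocytes and spermatids from maturing ones, so cell type and donor stage cannot be told apart in them.

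**Figure D5:**
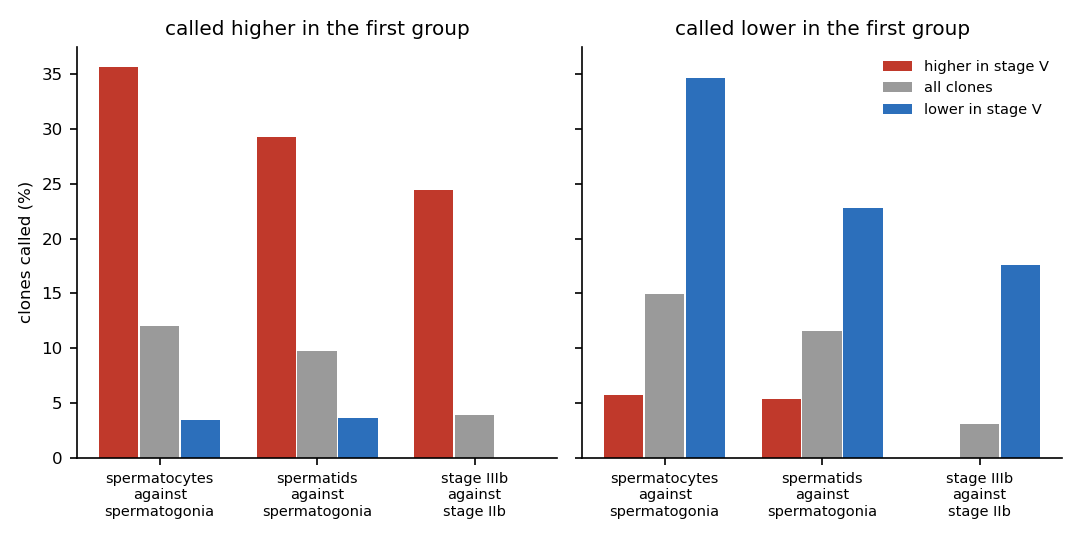
Share of clones called higher (left) or lower (right) in spermatocytes against spermatogonia, spermatids against spermatogonia and stage IIIb against stage IIb, in percent of the clones that were higher in stage V (red, 1371), of all clones (grey, 9024) and of those lower in stage V (blue, 1413). Among the clones higher in stage V 35.7%, 29.3% and 24.4% were called higher, and among all clones 12%, 9.74% and 3.92%.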

How the data were processed

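Male rainbow trout testes and germ cell fractions were profiled on nylon cDNA arrays. Per the methods, the authors scaled each signal by the vector signal of its own spot relative to the median of those signals, and then log2-transformed and quantile normalized the values in AMEN (version not stated in the sources used here), and the deposited log2 values were used unchanged. The table had 9216 entries, of which 9024 clones had values. The number of columns that belong to no sample was 0. A total of 190 clones lacked a value somewhere, 169 of them on stage V replicate 1, and such a clone was fitted without the missing arrays. The authors' filter on vector signals was not applied, since these signals were not used here.

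One mean for each of the 9 groups was fitted over 38 arrays in limma 3.58.1 (R 4.3.3, prior df 7.3, residual df 29), without covariates, and clones were called at a Benjamini-Hochberg adjusted p of 0.05 over all clones. In simulated data for 8834 clones, of which 200 changed, 35% of changes of 0.5 and 89% of changes of 1 log2 unit from stage I to stage V were recovered, with 9 false calls. Far fewer clones changed there than the 30.9% called here, so these shares need not hold for this comparison.

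Symbols came from the array description (677 clones, 669 checked by Entrez number against RefSeq, assembly USDA_OmykA_1.1). Of the bare locus numbers among them, 46 were named by a RefSeq synonym and 140 stayed unnamed. The study's text named 3 clones, and its supplementary table, matched by values in 22 columns within 0.01, named 193. Only 229 entries of that table were used here, and all 193 names came from its somatic cluster. In all 730 clones of 651 genes had names. Genes named in the text were members of the gene lists, the 15 largest named rises and falls among called clones, and genes the study names with a clone. The gene lists and these choices were made with earlier results of these data known. The DNA replication list had no named clone. A further 8154 clones had no symbol, so genes of any list could be among them uncounted. The clone printed for Amh and the study's ontology groups were not analysed here. Alternatives were the fit of 9 arrays only, array weights, raised or filtered low signals, cyclic loess, complete clones only, a trended and robust prior, a stricter threshold, a replicate block and the omission of each array.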

Additional observations from a re-analysis of the deposited data

Results flagged for a closer look

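In 11 of the 170 groups of arrays tested among the clones named in the text, an array lay apart from the others of its stage by Dixon's test. Chance alone gives about 1 in 20. Stage I replicate 1 was the array apart in 5 of them. It was the lowest for hsp90ab1 (9.08, next 10.75), roa0 (8.22, next 9.31), cyp11b (8.29, next 8.88) and igfbp7 (7.55, next 9.14), and the highest for a clone of fabph (10.54, next 10.09). For clu, stage I replicate 4 was the lowest (10.85, next 11.24), and for cq032 it was stage I replicate 3 (8.23, next 8.55). In stage V, hmgb1a was highest on replicate 2 (12.15, next 11.72), igfbp7 on replicate 1 (8.44, next 8.29), and rdh12 and a clone of gapdh on replicate 3 (8.78, next 7.81, and 9.71, next 9.52). Igfbp7, an insulin-like growth factor-binding protein, had overlapping stages through stage I replicate 1 alone. Its fall of 0.68 was no longer called without any of 7 of the 9 arrays, all but replicate 1 of each stage (adjusted p up to 0.12). Over the runs without 1 array its change lay between -1.04 and -0.54.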

How the results depend on the processing

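No clone called between the stages was called in the other direction under any alternative in which it was fitted. With low signals raised to the median, the fitted change of 174 of the 2784 lay on the other side of 0 without a call. Of 86 single clones followed 74 were called, 61 of them at 0.005 and 58 under every alternative, and 8 of the 12 others were called under none. With array weights 4655 clones differed (2127 higher, 2528 lower), with the 9 arrays alone 3740 (1729 and 2011), and at an adjusted p of 0.005 1557 (845 and 712). Leaving out 1 array each gave 2172 to 2577, 1107 to 1293 and 1065 to 1297. The replicate block gave 3912 (1819 and 2093). Same-numbered arrays had deviations correlated at 0.372, 0.028, 0.127 and 0.305. Arrays with different numbers were not correlated beside them, so whether the numbers pair the samples was not tested. Replicate 1 had the lowest array weight of its group in stages I, IIa, IIb, V and VIII (0.449, 0.333, 0.292, 0.988 and 0.571). It did not in stage IIIb or in the fractions. The shares of risen clones higher in spermatocytes, spermatids and stage IIIb were 32.5%, 22.5% and 11.1% at 0.005, against 5.56%, 3.61% and 1.04% of all clones. Those of fallen clones were 27.7%, 13.6% and 6.88%, against 8.2%, 4.93% and 0.565%. With array weights the risen shares in spermatids and stage IIIb were 15.9% and 42%, against 5.51% and 11.1%, and the fallen shares were 31.5%, 12.3% and 35.8%, against 17.8%, 6.49% and 11.1%. With low signals raised to the median they were 27% for risen clones in stage IIIb against 3.25%, and 28.1%, 19.6% and 22.8% for fallen clones, against 10.5%, 7.95% and 2.7%. Among the 4981 clones at or above the median on at least 4 arrays, they were 33.1% and 33.1% (risen, in spermatids and stage IIIb) and 26.4% and 22.8% (fallen), against 12.2%, 7.57%, 17.4% and 5.54%. Cyclic loess gave 20.5% and 19.7% in stage IIIb, against 3.65% and 3.27%. Without single arrays risen shares were 36.1% to 40.2%, 29.5% to 33.2% and 24% to 27.5%, and fallen shares 34.3% to 37.7%, 22.2% to 24.9% and 18% to 20.6%. With low signals raised to the median 1961 clones differed (996 higher, 965 lower), and 1872 of the 2784 calls were kept. Among the 86 clones followed it ended 11 calls. These were h1m, a clone of hsp90ab1, CCT5, si:ch211-137i24.10, fih1, ae1, irf3, igf1, rdh12, rps6 and ncl. Outside these 86, the named clones that lost their calls included those of HNRNPC, tfa, ANXA6 and PTPRB, and that of DHRS9 or DHRS3. The cause of these shifts was not tested.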
